A study of Homo sapiens with 18 samples.

Results

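The 41 genes described here make and recycle the purine and pyrimidine nucleotides of the cell and turn them into deoxynucleotides. They were chosen by name, and each of the 41 had 1 row in the deposited table of 26863 gene symbols and passed the filter on low values, among 16067 genes tested. The cells were 16D, a castration-resistant prostate cancer (CRPC) cell line, and every group carried lentiviral Cas9 with a guide RNA. There were 3 libraries each of sgOGDHL_1 Enza, sgOGDHL_2 Enza, sgAAVS Enza, sgOGDHL_1 DMSO, sgOGDHL_2 DMSO and sgAAVS DMSO, 18 in all. sgOGDHL_1 and sgOGDHL_2 are 2 guides against OGDHL, a relative of the mitochondrial 2-oxoglutarate dehydrogenase, and sgAAVS is a control guide to a safe-harbour locus. Enza is enzalutamide, an antiandrogen used against prostate cancer, given at 10 µM over 6 weeks, and DMSO is its vehicle over the same time. The labels state neither whether a guide's cells were a clone or a pool, nor whether replicates were separate cultures. The p-values therefore measure the spread between these libraries, which may be technical. The comparisons address how long exposure to the drug and targeting of OGDHL changed the transcripts of the nucleotide pathways.

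Nucleotides are built in parallel routes. De novo synthesis assembles the purine ring on phosphoribosyl pyrophosphate (PRPP) with one-carbon units from folate, and assembles the pyrimidine ring from aspartate and carbamoyl phosphate, whereas salvage kinases and phosphoribosyltransferases reuse bases and nucleosides. Ribonucleotide reductase and thymidylate synthase then supply the deoxynucleotides of DNA, and several of their genes are known to be transcribed mainly in S phase.

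Values are TPM (transcript abundance, reads per length of transcript scaled to a common sum in every library) after the mitochondrially encoded rows were taken out and each library was rescaled to 1000000. Those rows held 50.1% to 73.8% of the deposited TPM, and in sgOGDHL_1 DMSO they held 73.8%, 69.9% and 57.2%. TPM keeps no sequencing depth. A change is a difference of log2(TPM + 1), which understates changes of low genes, and a gene was called higher or lower at an adjusted p under 0.05 in limma with Benjamini-Hochberg adjustment over all genes tested. In such bulk RNA, fewer cells of a type and less RNA per cell cannot be told apart.

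The targeted gene went against 1 label. OGDHL (chromosome 10, 49734643 to 49762379, GRCh38) had 2.56, 2.62 and 2.30 TPM in sgOGDHL_1 Enza libraries and 4.14, 4.33 and 4.35 TPM in sgOGDHL_2 Enza libraries, against 7.63, 7.85 and 7.43 TPM in sgAAVS Enza libraries (log2 changes -1.31 and -0.71, adjusted p = 9e-08 and 0.00013). It had 1.93, 2.29 and 3.16 TPM in sgOGDHL_1 DMSO libraries and 6.17, 7.31 and 6.54 TPM in the libraries labelled sgOGDHL_2 DMSO, against 4.68, 4.86 and 4.62 TPM in sgAAVS DMSO libraries (log2 changes -0.74 and 0.42, adjusted p = 0.0014 and 0.00088). OGDHL was thus higher, not lower, in the libraries labelled sgOGDHL_2 DMSO, so that label is quoted as such below. Their log2 values correlated with those of the other 15 libraries at 0.937 to 0.956 across genes, against 0.971 to 0.997 among those 15. They also had fewer rows at 0 in the deposited table, 1407 to 1630. The sgOGDHL_2 Enza libraries had 3042 to 3208 such rows, and the other 4 groups 3646 to 4498. The prostate epithelial markers KLK3, HOXB13, KRT8, KRT18 and EPCAM were at 1 TPM or more in every group. KLK3, which encodes prostate-specific antigen, had 2145, 1994 and 1951 TPM in sgOGDHL_1 Enza libraries and 256, 272 and 256 TPM in sgOGDHL_2 Enza libraries, against 136, 134 and 126 TPM in sgAAVS Enza libraries. It had 821, 920.1 and 1053 TPM in sgOGDHL_1 DMSO libraries and 642, 677 and 657 TPM in the libraries labelled sgOGDHL_2 DMSO, against 805, 851 and 843 TPM in sgAAVS DMSO libraries. It was thus higher in Enza than in DMSO in sgOGDHL_1 cells (1.13, adjusted p = 9.1e-09) and lower in sgAAVS cells (-2.64, adjusted p = 2.5e-13), and its part in the results on those groups was not tested. Of 7 markers of other cells only the macrophage gene CD68 reached 1 TPM, and the 7 summed to 22.4 to 28.2 TPM in the libraries labelled sgOGDHL_2 DMSO, against 1.62 to 2.17 TPM in sgAAVS DMSO libraries and 1.09 to 2.44 TPM in the other 4 groups. The part of these differences in the results on those libraries was not tested.

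The members covered a wide range of levels. In sgAAVS DMSO cells the highest was IMPDH2, the main IMP dehydrogenase of proliferating cells, at 689.9 ± 9.67 TPM (SD, n = 3), followed by the nucleoside diphosphate kinase NME2 at 410.5 ± 6.82 TPM and the adenine salvage enzyme APRT at 355 ± 3.38 TPM. NME1, at 197 ± 2.38 TPM, and PAICS, at 170.3 ± 2.02 TPM, came next in order, each apart from its neighbour by more than their SDs. This order is that of each gene's own row. With rows named as pseudogenes added, the sgAAVS DMSO means were 808 TPM for NME2, 386 TPM for PAICS and 176 TPM for GMPS, which changes the order. The SDs do not measure how reads were shared between such rows. RRM1 and TYMS, at 37.0 ± 0.880 and 36.9 ± 0.730 TPM, did not differ beyond their spread, and neither did PFAS and GART, at 29.2 ± 0.705 and 29.1 ± 0.594 TPM. The lowest were CTPS2 at 3.74 ± 0.0992 TPM, ADSS1 at 2.81 ± 0.0519 TPM and NME4 at 1.55 ± 0.103 TPM. The map of all members by library shows that the broadest departure from sgAAVS DMSO was in the libraries labelled sgOGDHL_2 DMSO, and that RRM1, RRM2, TYMS and DUT stood lower in sgOGDHL_2 Enza than in sgOGDHL_1 Enza.

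**Figure D1:**
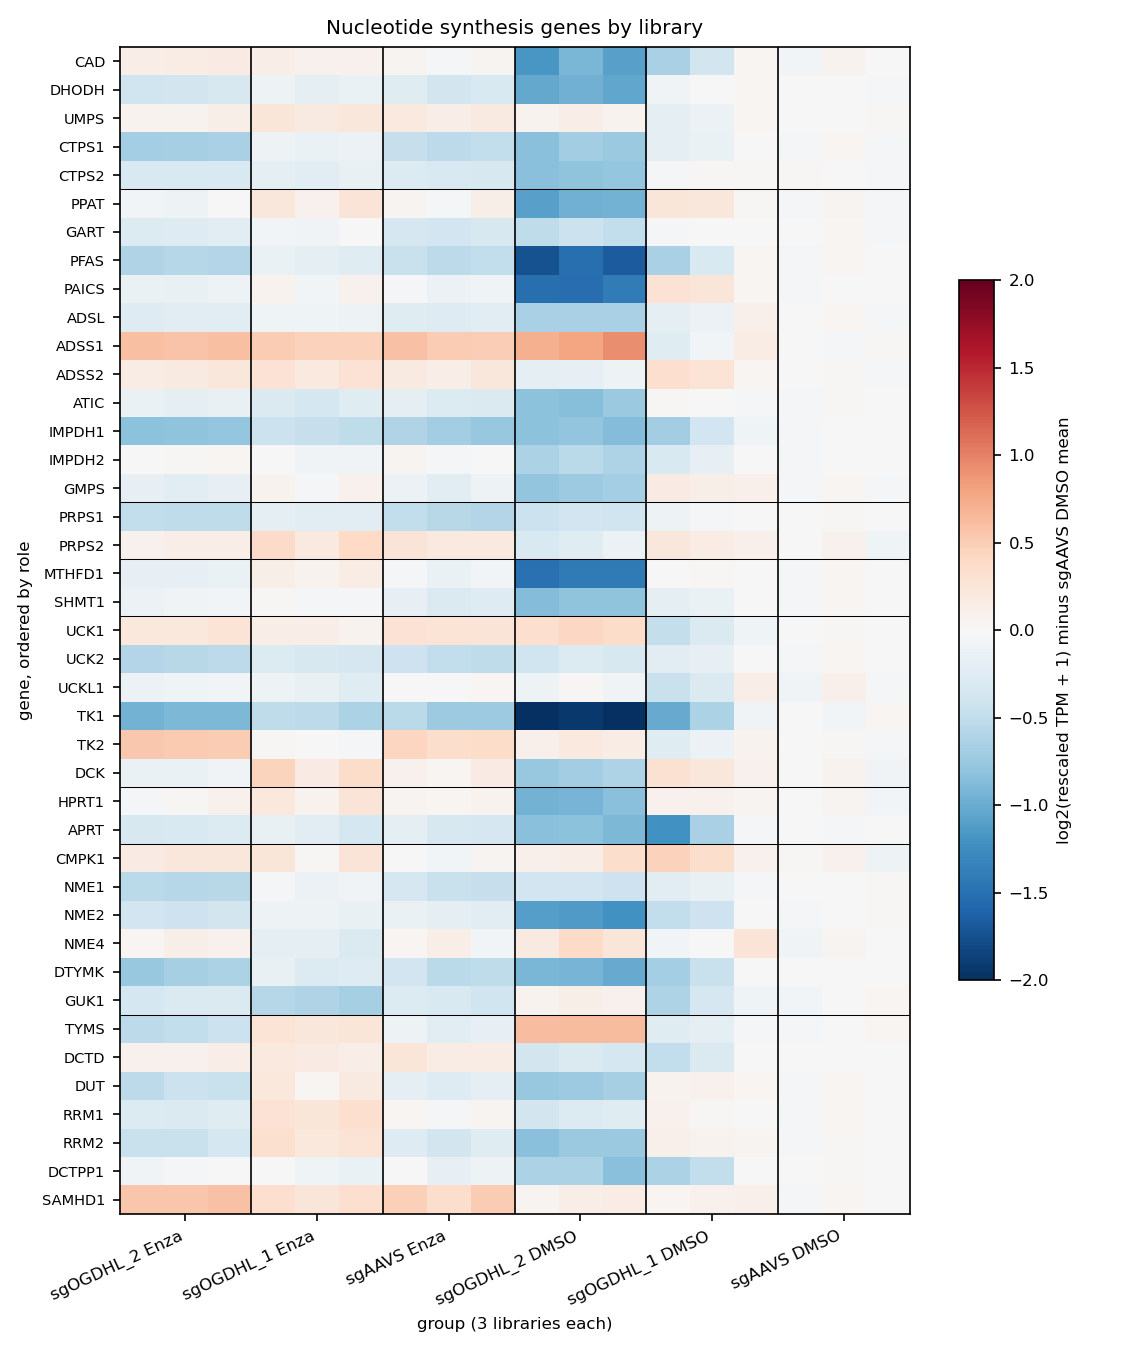
Heat map of the 41 member genes (down the page, by role) in the 18 libraries (across, by group); colour is the difference in log2(TPM + 1) from the mean of the sgAAVS DMSO libraries, on a scale of -2 to 2. Most members are lower in the 3 libraries labelled sgOGDHL_2 DMSO, where TK1 changed by -2.0, while TYMS and ADSS1 are higher there.

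The deoxynucleotide genes are introduced here with their promoters, because they recur in the comparisons below. RRM1 (chromosome 11, 4094707 to 4138876) and RRM2 (chromosome 2, 10120698 to 10131419) encode the large and the small subunit of ribonucleotide reductase, TYMS (chromosome 18, 657604 to 673578) makes dTMP from dUMP, and TK1 (chromosome 17, 78174075 to 78187233) is the cytosolic thymidine kinase of salvage (GENCODE 29, GRCh38). Below are the windows from 250 bases before to 50 after the start of 3 of them, 5′ to 3′ on the gene's strand, from RefSeq on GRCh38.p14; for RRM2 and TK1, with 2 windows each, the start farthest downstream is shown. Capitals mark the motifs found: CCAAT in RRM2 (chr2:10122489-10122788, plus strand), the E2F-type GCGGGAAA in TYMS (chr18:657403-657702, plus strand) and ATTGG, which is CCAAT on the other strand, in TK1 (chr17:78187003-78187302, minus strand).
RRM2: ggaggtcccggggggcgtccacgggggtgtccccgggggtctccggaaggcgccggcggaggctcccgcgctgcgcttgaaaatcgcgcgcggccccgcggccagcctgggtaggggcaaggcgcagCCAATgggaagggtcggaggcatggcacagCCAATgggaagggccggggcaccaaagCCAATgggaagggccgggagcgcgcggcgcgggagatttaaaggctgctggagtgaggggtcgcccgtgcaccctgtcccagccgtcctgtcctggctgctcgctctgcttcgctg
TYMS: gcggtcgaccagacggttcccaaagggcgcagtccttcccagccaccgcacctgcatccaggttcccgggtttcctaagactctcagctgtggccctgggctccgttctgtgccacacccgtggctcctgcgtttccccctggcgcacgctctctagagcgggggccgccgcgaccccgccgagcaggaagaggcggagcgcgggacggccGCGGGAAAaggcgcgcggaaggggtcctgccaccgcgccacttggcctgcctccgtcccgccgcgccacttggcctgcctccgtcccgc
TK1: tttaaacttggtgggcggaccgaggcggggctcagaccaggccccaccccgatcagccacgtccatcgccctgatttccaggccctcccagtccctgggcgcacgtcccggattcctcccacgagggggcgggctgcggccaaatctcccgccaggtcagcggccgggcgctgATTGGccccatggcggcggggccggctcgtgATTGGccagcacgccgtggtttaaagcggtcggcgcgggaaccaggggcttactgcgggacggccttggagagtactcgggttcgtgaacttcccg
The motifs searched, on both strands, were the CCAAT box (CCAAT), the E-box (CACGTG) and an E2F-type motif (TTT, then C or G at each of the next 2 places, then CGC). In the windows shown, RRM2 held CCAAT at -123, -93 and -66 from the start and TK1 held it at -77 and -46, while TYMS held an E2F-type motif at -39 and no CCAAT. RefSeq windows were matched for 39 of the 41 members, 58 windows in all, of which 17 held a CCAAT box, 9 an E-box and 5 an E2F-type motif, against 34.6%, 7.26% and 3.31% of all 35116 windows. The E2F-type motif was found in windows of TYMS, DUT, DCK, GART and PRPS2. The E-box was found, among others, in windows of PPAT and PAICS, neighbours transcribed away from each other (PPAT at chromosome 4, 56393362 to 56435615, minus strand; PAICS at chromosome 4, 56435741 to 56464579, plus strand). A match describes the letters of the window and is not a binding site.

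Under Enza in control cells, members of both de novo routes fell, together with TK1 and RRM2, while the deoxynucleotide-degrading SAMHD1 and the mitochondrial kinase TK2 rose. Of the 41 members, 26 were called (63.4%), 7 higher and 19 lower, where 47.9% of all genes were called, 23.1% higher and 24.8% lower. Higher calls were fewer among the members (17.1%) and lower calls more frequent (46.3%) than among all genes. The median change was -0.14 over the members and -0.01 over all genes.

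The largest falls were in purine synthesis, salvage and PRPP supply. IMPDH1, the second IMP dehydrogenase, had 19.2, 18 and 17.2 TPM in sgAAVS Enza libraries, against 29.4, 29.9 and 30.0 TPM in sgAAVS DMSO libraries (-0.69, adjusted p = 4.9e-05). TK1 had 46.4, 40.5 and 40.6 TPM in sgAAVS Enza libraries, against 68.5, 65.5 and 70.1 TPM in sgAAVS DMSO libraries (-0.67, adjusted p = 0.0024). In both genes every Enza library lay below every DMSO library, by more than the spread within a group. PRPS1, which makes PRPP, had 28.5, 27.2 and 26.7 TPM in sgAAVS Enza libraries, against 40.2, 41.1 and 40.1 TPM in sgAAVS DMSO libraries (-0.54, adjusted p = 4.5e-09). PFAS, a step of the purine ring, had 21.3, 19.9 and 20.3 TPM in sgAAVS Enza libraries, against 28.6, 29.9 and 28.9 TPM in sgAAVS DMSO libraries (-0.49, adjusted p = 0.0032). The groups of both genes were again separate. CTPS1, the CTP synthase that makes CTP from UTP, had 16.8, 16.0 and 16.4 TPM in sgAAVS Enza libraries, against 23.0, 24.2 and 23.2 TPM in sgAAVS DMSO libraries (-0.49, adjusted p = 4.7e-07). DTYMK, the thymidylate kinase that carries dTMP toward dTTP, had 16.9, 15 and 15.4 TPM in sgAAVS Enza libraries, against 22.3, 22.0 and 22.3 TPM in sgAAVS DMSO libraries (-0.47, adjusted p = 0.003).

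Other enzymes of these routes fell by less. The purine genes GART (-0.34), ATIC (-0.25), ADSL (-0.24) and GMPS (-0.14) were called lower, so that 6 of 11 purine de novo genes fell and 2 rose. In pyrimidine synthesis DHODH, the mitochondrial dihydroorotate dehydrogenase, changed by -0.30 and CTPS2 by -0.30, and 3 of 5 genes fell. UMPS, which closes the route to UMP, rose slightly, with 30.2, 29.1 and 29.9 TPM in sgAAVS Enza libraries, against 26.3, 26.2 and 26.7 TPM in sgAAVS DMSO libraries (0.17, adjusted p = 0.012). CAD, the enzyme of the first steps of that route, was not called (0.03, 95% interval -0.23 to 0.28), nor was PPAT, the entry enzyme of purine synthesis (0.05, -0.09 to 0.19). PAICS (-0.08), IMPDH2 (0.01, -0.11 to 0.14) and the purine salvage genes HPRT1 (0.06) and APRT (-0.28, -0.68 to 0.13) did not pass either.

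Among deoxynucleotide genes, RRM2 had 9.55, 8.83 and 9.73 TPM in sgAAVS Enza libraries, against 11.5, 11.8 and 11.7 TPM in sgAAVS DMSO libraries (-0.29, adjusted p = 5.7e-05). TYMS had 34.2, 31.5 and 32.7 TPM in sgAAVS Enza libraries, against 36.4, 36.6 and 37.7 TPM in sgAAVS DMSO libraries (-0.17, adjusted p = 0.011). Both were lower in every Enza library than in any DMSO library, though the call of TYMS was lost without sgAAVS Enza replicate 2 (adjusted p = 0.054). DUT, which hydrolyses dUTP, also fell (-0.21, adjusted p = 0.0018), while the partner subunit RRM1 was not called (0.02, 95% interval -0.07 to 0.11). SAMHD1, a hydrolase of deoxynucleoside triphosphates, had 13.5, 12.4 and 13.9 TPM in sgAAVS Enza libraries, against 9.14, 9.77 and 9.49 TPM in sgAAVS DMSO libraries (0.44, adjusted p = 1e-06). TK2, the mitochondrial thymidine kinase, had 9.87, 9.29 and 9.39 TPM in sgAAVS Enza libraries, against 6.99, 7.21 and 6.92 TPM in sgAAVS DMSO libraries (0.39, adjusted p = 7.5e-05). ADSS1, an adenylosuccinate synthase of the AMP branch, had 4.74, 4.41 and 4.35 TPM in sgAAVS Enza libraries, against 2.81, 2.77 and 2.87 TPM in sgAAVS DMSO libraries (0.53, adjusted p = 4.5e-05). In these 3 genes all Enza libraries were above all DMSO libraries. UCK1, a uridine-cytidine kinase, had 43.5, 42.8 and 42.4 TPM in sgAAVS Enza libraries, against 35.1, 36.0 and 35.3 TPM in sgAAVS DMSO libraries (0.27, adjusted p = 0.0038). PRPS2, the second PRPP synthetase, had 17.7, 16.7 and 16.8 TPM in sgAAVS Enza libraries, against 14.6, 15.6 and 13.6 TPM in sgAAVS DMSO libraries (0.21, adjusted p = 0.011). ADSS2, the other adenylosuccinate synthase, had 11.3, 10.9 and 11.7 TPM in sgAAVS Enza libraries, against 9.80, 10.0 and 9.70 TPM in sgAAVS DMSO libraries (0.18, adjusted p = 0.021). These 3 rose by less, again with no overlap. Falls of UCK2 (-0.47), NME1 (-0.41), GUK1 (-0.32) and SHMT1 (-0.24) were also called. A list of 12 S phase genes moved beside these, with 1 called higher and 6 lower (median -0.22), and its part in the result was not tested. With the mitochondrial rows kept, that is with TPM as deposited, 6 members were called, 1 higher and 5 lower.

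**Figure D2:**
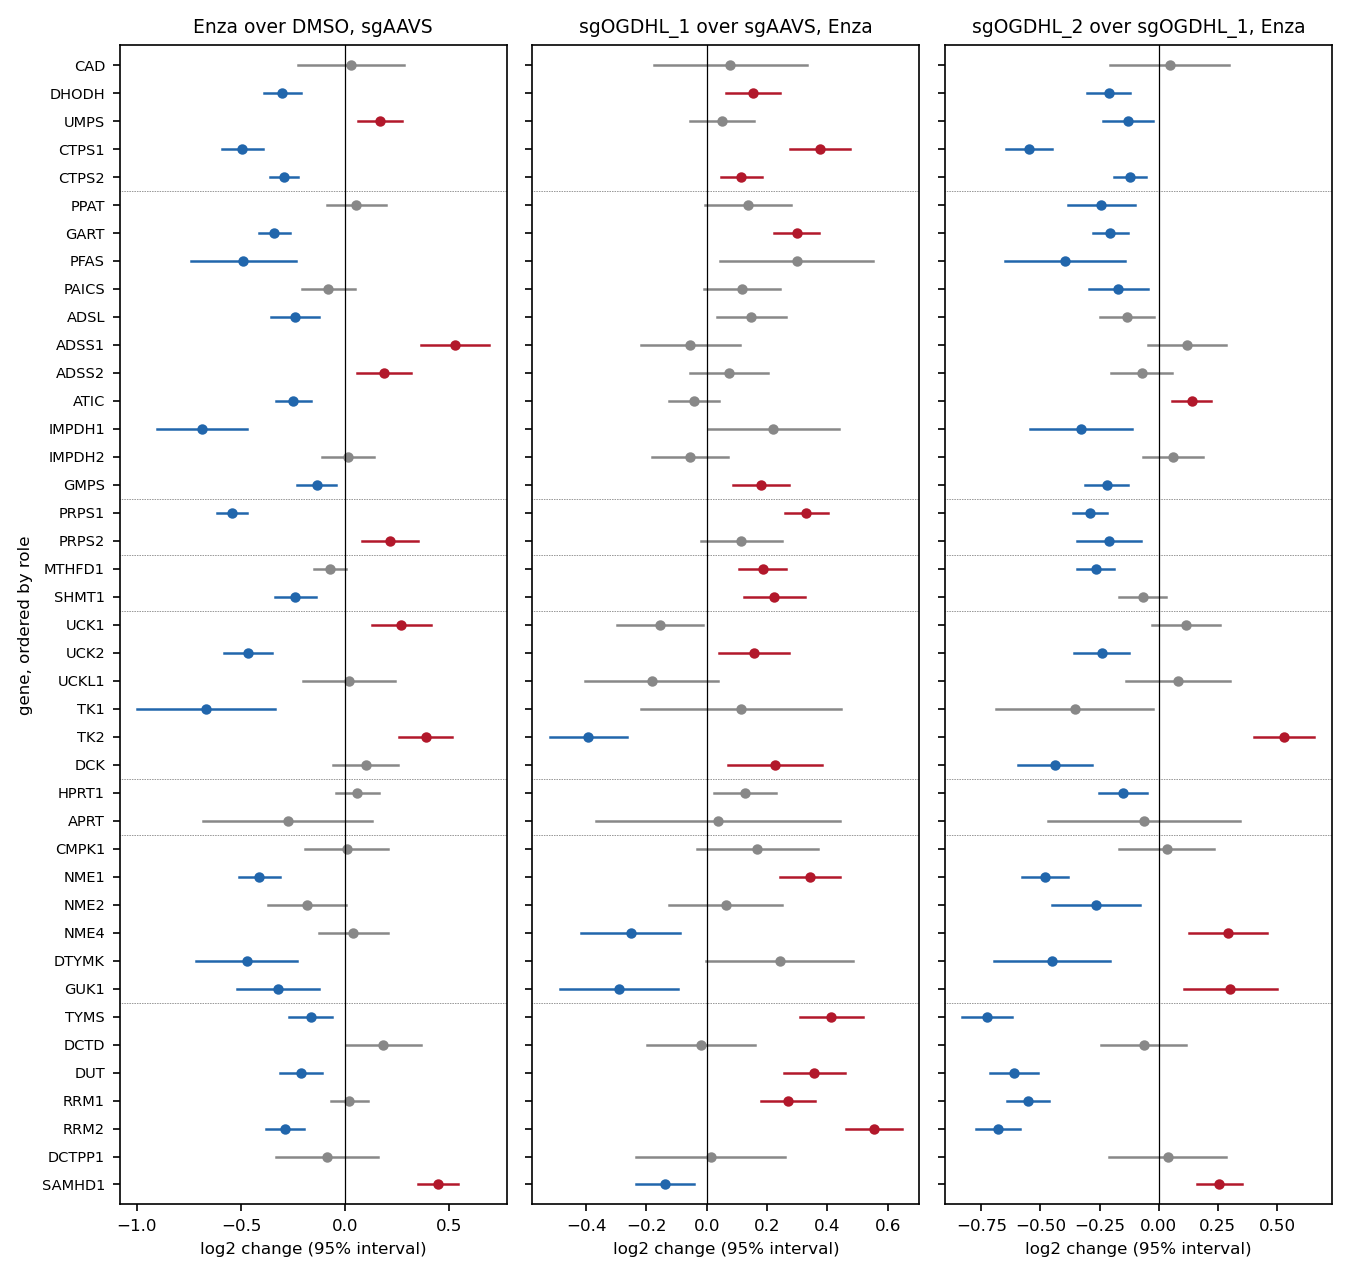
Change in log2(TPM + 1) of each of the 41 members (down the page) with its 95% interval in 3 comparisons: Enza over DMSO in sgAAVS cells, sgOGDHL_1 over sgAAVS in Enza, and sgOGDHL_2 over sgOGDHL_1 in Enza; red is called higher, blue called lower and grey not called. RRM2 lies at -0.29, 0.55 and -0.68 and TK2 at 0.39, -0.39 and 0.53 across the 3 panels.

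In sgOGDHL_1 cells most deoxynucleotide genes were higher in Enza than in DMSO, and TYMS, CAD, DCTD and ADSS1 were among the largest rises. Calls were made for 20 of the 41 members (48.8%), 12 higher and 8 lower, where 42.8% of all genes were called, 19.5% higher and 23.3% lower, so the overall share was near the background. Of 7 deoxynucleotide genes 6 were called higher and none lower, and of 11 purine de novo genes 1 was called higher and 2 lower. TYMS had 44.8, 43.3 and 43.9 TPM in sgOGDHL_1 Enza libraries, against 30.9, 32.6 and 36.3 TPM in sgOGDHL_1 DMSO libraries (0.40, adjusted p = 1.5e-05). RRM1 had 45.4, 43.9 and 46.8 TPM in sgOGDHL_1 Enza libraries, against 39.3, 37.8 and 37.2 TPM in sgOGDHL_1 DMSO libraries (0.25, adjusted p = 0.00027). RRM2 had 14.8, 13.6 and 14.3 TPM in sgOGDHL_1 Enza libraries, against 12.5, 12.3 and 12.1 TPM in sgOGDHL_1 DMSO libraries (0.19, adjusted p = 0.0023). All 3 were higher in every Enza library than in any DMSO library. CAD had 34.0, 32.7 and 32.8 TPM in sgOGDHL_1 Enza libraries, against 19.3, 23.7 and 31.5 TPM in sgOGDHL_1 DMSO libraries (0.43, adjusted p = 0.0092). UMPS had 31.4, 30.1 and 31.0 TPM in sgOGDHL_1 Enza libraries, against 22.8, 24.2 and 27.2 TPM in sgOGDHL_1 DMSO libraries (0.31, adjusted p = 0.00017). The DMSO libraries were widely spread for CAD, whose replicate 3 came close to the Enza libraries, and with that replicate as the only DMSO library CAD was not called (0.07). DCTD, the dCMP deaminase that feeds dUMP to TYMS, had 22.9, 22.4 and 22.0 TPM in sgOGDHL_1 Enza libraries, against 13.9, 16.1 and 20.0 TPM in sgOGDHL_1 DMSO libraries (0.42, adjusted p = 0.001). ADSS1 had 4.41, 4.23 and 4.24 TPM in sgOGDHL_1 Enza libraries, against 2.24, 2.67 and 3.25 TPM in sgOGDHL_1 DMSO libraries (0.52, adjusted p = 8.4e-05). UCK1 had 39.1, 38.9 and 37.4 TPM in sgOGDHL_1 Enza libraries, against 25.3, 28.9 and 33.3 TPM in sgOGDHL_1 DMSO libraries (0.40, adjusted p = 0.00025). For these 3 the Enza libraries lay above the DMSO libraries without overlap. Their DMSO values also rose from replicate 1 to replicate 3, which lay closest to the Enza libraries, as did those of UMPS and TYMS.

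ATIC, which closes the purine ring to IMP, fell, with 47.8, 45.7 and 49.3 TPM in sgOGDHL_1 Enza libraries, against 59.2, 58.3 and 57.1 TPM in sgOGDHL_1 DMSO libraries (-0.28, adjusted p = 4.1e-05). NME4, a mitochondrial nucleoside diphosphate kinase, had 1.25, 1.26 and 1.09 TPM in sgOGDHL_1 Enza libraries, against 1.46, 1.54 and 2.04 TPM in sgOGDHL_1 DMSO libraries (-0.28, adjusted p = 0.0095). GUK1, the guanylate kinase, had 61.9, 61.2 and 58.1 TPM in sgOGDHL_1 Enza libraries, against 60.2, 73.6 and 87.7 TPM in sgOGDHL_1 DMSO libraries (-0.27, adjusted p = 0.028). The groups overlapped for GUK1 alone of these 3, and its call was lost without replicate 2 or 3 of either group (-0.14 without sgOGDHL_1 DMSO replicate 3). CTPS2 had 3.18, 3.11 and 3.25 TPM in sgOGDHL_1 Enza libraries, against 3.67, 3.83 and 3.82 TPM in sgOGDHL_1 DMSO libraries (-0.19, adjusted p = 0.00022). UCK2 had 10.5, 10.2 and 10.1 TPM in sgOGDHL_1 Enza libraries, against 10.9, 11.5 and 13.0 TPM in sgOGDHL_1 DMSO libraries (-0.18, adjusted p = 0.016). PRPS1 had 35.1, 34.8 and 34.6 TPM in sgOGDHL_1 Enza libraries, against 37.7, 39.4 and 40.7 TPM in sgOGDHL_1 DMSO libraries (-0.17, adjusted p = 0.00094). These falls were small but separated the groups. PAICS (-0.16, adjusted p = 0.045) and DHODH (-0.14, adjusted p = 0.017) were the other lower calls, and SAMHD1 (0.23, adjusted p = 0.0008), PRPS2 (0.17, adjusted p = 0.038) and MTHFD1 (0.11, adjusted p = 0.021) were also higher. PAICS was above 0 when its pseudogene rows were added (0.04) or the mitochondrial rows were kept (0.19), and DHODH, UCK2, CTPS2, ATIC, GUK1 and PRPS1 also turned positive with those rows kept. DCTPP1, a dCTP pyrophosphatase, passed narrowly (0.30, adjusted p = 0.047) and did not pass in most of the alternatives, including each that left out 1 library of sgOGDHL_1 Enza. In a fit of the 6 libraries of this comparison alone, 8 members were called, 6 higher and 2 lower, and CAD, DCTD and RRM2 were not among them. Of the 12 S phase genes 10 were higher and 1 lower (median 0.24), and their part was not tested. On TPM as deposited 17 were called, all higher.

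The comparison of sgOGDHL_1 with sgAAVS within Enza rests on libraries with mitochondrial shares of 57.7% to 60.4% and 50.3% to 60.2%. There RRM1, RRM2, TYMS and DUT were higher with the guide. Of the 41 members 19 were called (46.3%), 15 higher and 4 lower, where 30.6% of all genes were called, 16.3% higher and 14.3% lower. Higher calls thus took a larger share of the members (36.6%) than of all genes. The median change was 0.13 over the members and 0.00 over all genes, and 0.27 over the 7 deoxynucleotide genes, of which 4 rose and 1 fell.

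RRM2 had 14.8, 13.6 and 14.3 TPM in sgOGDHL_1 Enza libraries, against 9.55, 8.83 and 9.73 TPM in sgAAVS Enza libraries (0.55, adjusted p = 2.2e-07). TYMS had 44.8, 43.3 and 43.9 TPM in sgOGDHL_1 Enza libraries, against 34.2, 31.5 and 32.7 TPM in sgAAVS Enza libraries (0.41, adjusted p = 1.6e-05). DUT, whose product dUMP is the substrate of TYMS, had 49, 43.1 and 48.0 TPM in sgOGDHL_1 Enza libraries, against 36.8, 34.9 and 37.0 TPM in sgAAVS Enza libraries (0.36, adjusted p = 4.6e-05). In all 3, every sgOGDHL_1 library was above every sgAAVS library. RRM1 had 45.4, 43.9 and 46.8 TPM in sgOGDHL_1 Enza libraries, against 38.1, 35.8 and 38.6 TPM in sgAAVS Enza libraries (0.27, adjusted p = 0.00018). CTPS1 had 21.8, 21.4 and 21.5 TPM in sgOGDHL_1 Enza libraries, against 16.8, 16.0 and 16.4 TPM in sgAAVS Enza libraries (0.38, adjusted p = 2.1e-05). These 2 were likewise separate, so both subunits of the reductase rose. NME1 had 194, 181 and 187 TPM in sgOGDHL_1 Enza libraries, against 155, 145 and 143 TPM in sgAAVS Enza libraries (0.34, adjusted p = 5.2e-05). PRPS1 had 35.1, 34.8 and 34.6 TPM in sgOGDHL_1 Enza libraries, against 28.5, 27.2 and 26.7 TPM in sgAAVS Enza libraries (0.33, adjusted p = 3.4e-06). GART, which catalyses several steps of the purine ring, had 27.9, 27.8 and 29 TPM in sgOGDHL_1 Enza libraries, against 22.9, 22.2 and 23.3 TPM in sgAAVS Enza libraries (0.30, adjusted p = 1.3e-05). The 3 genes were separate between the groups too.

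TK1 was not called (0.11, 95% interval -0.22 to 0.44), nor were CAD (0.08), UMPS (0.05), PPAT (0.14), PAICS (0.12), IMPDH2 (-0.06), HPRT1 (0.13) and APRT (0.04). TK2 was lower, with 7.15, 7.05 and 6.82 TPM in sgOGDHL_1 Enza libraries, against 9.87, 9.29 and 9.39 TPM in sgAAVS Enza libraries (-0.39, adjusted p = 0.00015). SAMHD1 was lower, with 12.2, 11.3 and 12.3 TPM in sgOGDHL_1 Enza libraries, against 13.5, 12.4 and 13.9 TPM in sgAAVS Enza libraries (-0.14, adjusted p = 0.029). GUK1 had 61.9, 61.2 and 58.1 TPM in sgOGDHL_1 Enza libraries, against 76.8, 75.3 and 70.1 TPM in sgAAVS Enza libraries (-0.29, adjusted p = 0.026). NME4 had 1.25, 1.26 and 1.09 TPM in sgOGDHL_1 Enza libraries, against 1.63, 1.79 and 1.46 TPM in sgAAVS Enza libraries (-0.25, adjusted p = 0.022). The sgOGDHL_1 libraries were below the sgAAVS libraries in all 4, although the calls of GUK1, NME4 and SAMHD1 were each lost without 1 library, such as sgAAVS Enza replicate 1. Smaller rises were called for DCK, SHMT1, MTHFD1, GMPS, UCK2, DHODH and CTPS2, from 0.11 to 0.23. Beside these, 10 of the 12 S phase genes were higher and 1 lower (median 0.36), among them CDC6 (0.59, adjusted p = 4.2e-07), and their part in the result was not tested. On TPM as deposited 1 member was called, higher.

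**Figure D3:**
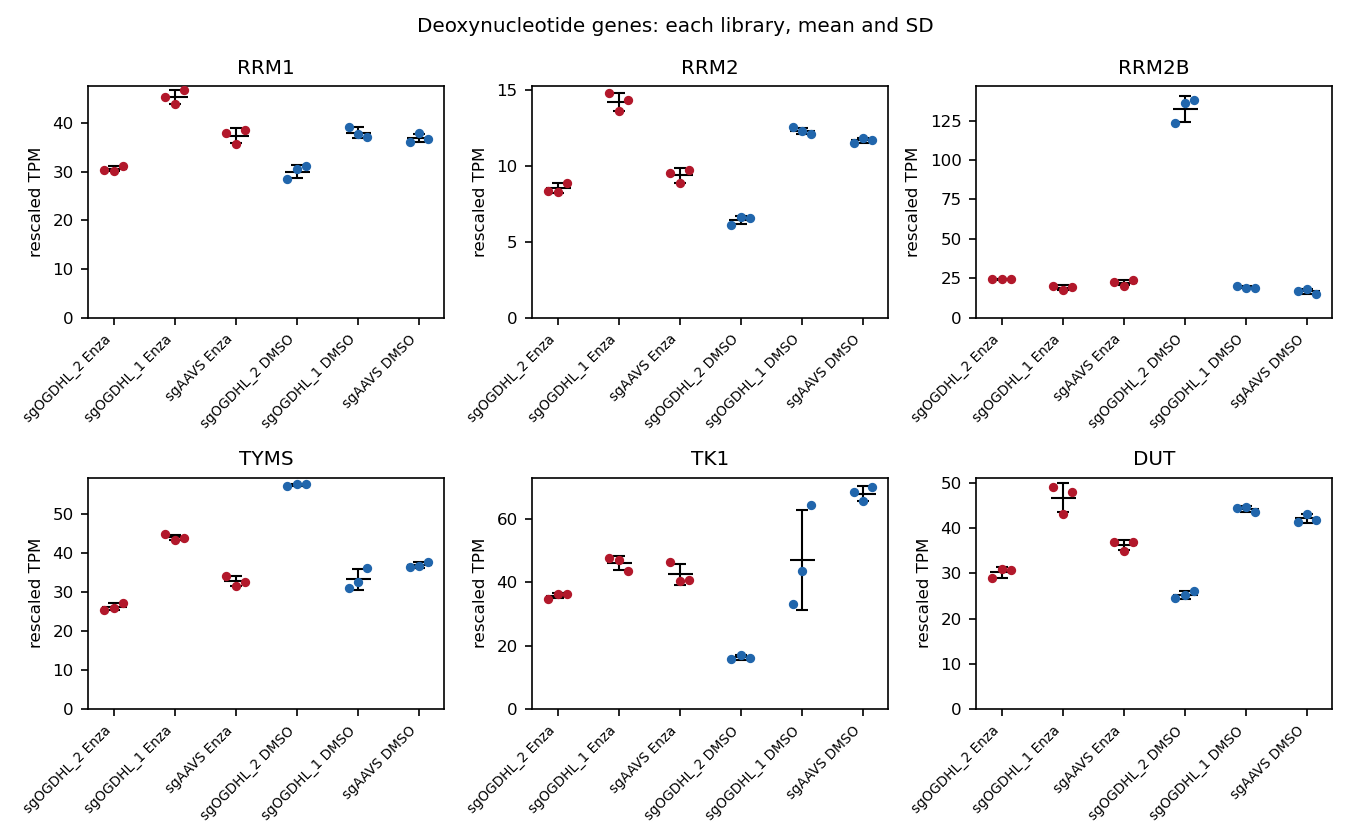
Levels (TPM, axis from 0) of RRM1, RRM2, RRM2B, TYMS, TK1 and DUT in each group; points are libraries, the bar is the mean and the error bar the SD over 3 libraries. RRM2 lies at 13.6 to 14.8 TPM in sgOGDHL_1 Enza, above the other Enza groups, and RRM2B at 123 to 138 TPM in the libraries labelled sgOGDHL_2 DMSO, far above all others.

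With sgOGDHL_2 in Enza few members differed from control, and those were mostly lower deoxynucleotide genes. Of the 41 members 5 were called (12.2%), 1 higher and 4 lower, where 14.0% of all genes were called, 8.97% higher and 5.02% lower (1442 and 807 genes, or 1462 and 1273 with median-of-ratios scaling), so the share of members called was near the background. TYMS had 25.5, 25.9 and 27.3 TPM in sgOGDHL_2 Enza libraries, against 34.2, 31.5 and 32.7 TPM in sgAAVS Enza libraries (-0.31, adjusted p = 0.00058). RRM1 had 30.5, 30.2 and 31.2 TPM in sgOGDHL_2 Enza libraries, against 38.1, 35.8 and 38.6 TPM in sgAAVS Enza libraries (-0.28, adjusted p = 0.00034). DUT had 28.9, 30.9 and 30.8 TPM in sgOGDHL_2 Enza libraries, against 36.8, 34.9 and 37.0 TPM in sgAAVS Enza libraries (-0.26, adjusted p = 0.0021). Every sgOGDHL_2 library was below every sgAAVS library in these 3. CTPS1 had 14.3, 14.5 and 14.6 TPM in sgOGDHL_2 Enza libraries, against 16.8, 16.0 and 16.4 TPM in sgAAVS Enza libraries (-0.17, adjusted p = 0.023). SHMT1, the cytosolic serine hydroxymethyltransferase, was higher, with 20.5, 21.4 and 21.5 TPM in sgOGDHL_2 Enza libraries, against 19.9, 18.2 and 18.5 TPM in sgAAVS Enza libraries (0.16, adjusted p = 0.038). Neither CTPS1 nor SHMT1 kept its call when sgOGDHL_2 Enza replicate 2 was left out (adjusted p = 0.069 and 0.12). RRM2 had 8.34, 8.28 and 8.89 TPM in sgOGDHL_2 Enza libraries, against 9.55, 8.83 and 9.73 TPM in sgAAVS Enza libraries, and was not called (-0.13, adjusted p = 0.072); the groups overlapped. No purine de novo and no salvage gene was called, with PPAT at -0.11 (95% interval -0.25 to 0.04), PAICS at -0.05, HPRT1 at -0.02 and TK1 at -0.24 (-0.57 to 0.09). Of the 12 S phase genes 9 were lower and none higher (median -0.30), and their part was not tested. The count of 5 was 11 without sgOGDHL_1 DMSO replicate 3 and 8 without replicate 1 of that group, which enter only through the shared spread, and 3 without sgAAVS Enza replicate 3 or without any of the 3 sgOGDHL_2 Enza replicates; it was 12 in a fit of the 6 libraries alone, 11 with median-of-ratios scaling and 0 in limma with the mitochondrial rows kept (4 at an unadjusted p under 0.05).

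Set directly against each other in Enza, most members called were lower with sgOGDHL_2, RRM1, RRM2, TYMS and DUT among them. In sgOGDHL_2 Enza against sgOGDHL_1 Enza, 28 of the 41 members were called (68.3%), 5 higher and 23 lower, where 41.0% of all genes were called, 22.2% higher and 18.8% lower. Of 7 deoxynucleotide genes 4 were lower and 1 higher, and of 5 pyrimidine de novo genes 4 were lower. The share of members called lower was 56.1%, and the median change was -0.17 over the members and 0.03 over all genes. The sgOGDHL_1 Enza and sgOGDHL_2 Enza libraries also enter the comparisons with sgAAVS Enza, so these are not independent.

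TYMS differed most, with 25.5, 25.9 and 27.3 TPM in sgOGDHL_2 Enza libraries, against 44.8, 43.3 and 43.9 TPM in sgOGDHL_1 Enza libraries (-0.73, adjusted p = 3.6e-08). RRM2 had 8.34, 8.28 and 8.89 TPM in sgOGDHL_2 Enza libraries, against 14.8, 13.6 and 14.3 TPM in sgOGDHL_1 Enza libraries (-0.68, adjusted p = 1.8e-08). DUT had 28.9, 30.9 and 30.8 TPM in sgOGDHL_2 Enza libraries, against 49, 43.1 and 48.0 TPM in sgOGDHL_1 Enza libraries (-0.61, adjusted p = 1.4e-07). RRM1 had 30.5, 30.2 and 31.2 TPM in sgOGDHL_2 Enza libraries, against 45.4, 43.9 and 46.8 TPM in sgOGDHL_1 Enza libraries (-0.55, adjusted p = 1.1e-07). The 4 genes were lower in every sgOGDHL_2 library, with gaps larger than the range within either group. CTPS1 had 14.3, 14.5 and 14.6 TPM in sgOGDHL_2 Enza libraries, against 21.8, 21.4 and 21.5 TPM in sgOGDHL_1 Enza libraries (-0.55, adjusted p = 3.4e-07). NME1 had 135, 132 and 134 TPM in sgOGDHL_2 Enza libraries, against 194, 181 and 187 TPM in sgOGDHL_1 Enza libraries (-0.48, adjusted p = 1.2e-06). In pyrimidine synthesis 4 of 5 genes were lower, CAD being the exception (0.05, 95% interval -0.21 to 0.30), and in purine synthesis 6 of 11 were lower and 1 higher. PPAT had 17.2, 16.6 and 17.7 TPM in sgOGDHL_2 Enza libraries, against 21.0, 18.9 and 21.6 TPM in sgOGDHL_1 Enza libraries (-0.24, adjusted p = 0.009). GART had 23.9, 24.1 and 25.1 TPM in sgOGDHL_2 Enza libraries, against 27.9, 27.8 and 29 TPM in sgOGDHL_1 Enza libraries (-0.21, adjusted p = 0.00026). PAICS (-0.17, adjusted p = 0.031) and UMPS (-0.13, adjusted p = 0.046) fell slightly, and both calls were lost without sgOGDHL_1 Enza replicate 1 or 3 or any sgOGDHL_2 Enza library, and that of UMPS without most other libraries too.

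TK2 was higher, with 10.6, 10.6 and 10.5 TPM in sgOGDHL_2 Enza libraries, against 7.15, 7.05 and 6.82 TPM in sgOGDHL_1 Enza libraries (0.53, adjusted p = 5.9e-06). GUK1 had 72.5, 75.6 and 75.9 TPM in sgOGDHL_2 Enza libraries, against 61.9, 61.2 and 58.1 TPM in sgOGDHL_1 Enza libraries (0.30, adjusted p = 0.016). SAMHD1 had 14.3, 14.3 and 14.7 TPM in sgOGDHL_2 Enza libraries, against 12.2, 11.3 and 12.3 TPM in sgOGDHL_1 Enza libraries (0.26, adjusted p = 0.00034). All 3 were separate between the groups. NME4 had 1.63, 1.76 and 1.69 TPM in sgOGDHL_2 Enza libraries, against 1.25, 1.26 and 1.09 TPM in sgOGDHL_1 Enza libraries (0.29, adjusted p = 0.0072). ATIC had 53.2, 51.5 and 52.8 TPM in sgOGDHL_2 Enza libraries, against 47.8, 45.7 and 49.3 TPM in sgOGDHL_1 Enza libraries (0.14, adjusted p = 0.011). Both were separate as well, but ATIC was not called with median-of-ratios scaling (0.09) or without sgOGDHL_1 Enza replicate 2 (0.11). IMPDH2 was not called (0.06), nor were APRT (-0.06) and TK1 (-0.36, 95% interval -0.69 to -0.02). HPRT1, the salvage enzyme of hypoxanthine and guanine, was slightly lower (-0.15, adjusted p = 0.021) with groups that overlapped, and its call was lost in several alternatives, among them when its pseudogene rows were added (-0.13). All 12 S phase genes were lower in sgOGDHL_2 Enza (median -0.61), E2F1 among them (-0.75, adjusted p = 0.00018), and their part was not tested. Keeping the mitochondrial rows left 7 members called, 1 higher and 6 lower.

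In DMSO the 3 sgOGDHL_1 libraries stood apart from one another at many members. The third library, with a mitochondrial share of 57.2%, lay near sgAAVS DMSO, and the first and second, with 73.8% and 69.9%, lay away from it. Of the 41 members 17 were called against sgAAVS DMSO (41.5%), 5 higher and 12 lower, where 32.2% of all genes were called, 21.1% higher and 11.1% lower (3383 and 1786 genes, or 2768 and 3231 with median-of-ratios scaling, which called 2 members higher and 20 lower). APRT had 153, 225 and 348 TPM in sgOGDHL_1 DMSO libraries, against 357, 351 and 356 TPM in sgAAVS DMSO libraries (-0.63, adjusted p = 0.029). TK1 had 33.2, 43.5 and 64.4 TPM in sgOGDHL_1 DMSO libraries, against 68.5, 65.5 and 70.1 TPM in sgAAVS DMSO libraries (-0.57, adjusted p = 0.024). IMPDH1 had 18.1, 22.5 and 28.0 TPM in sgOGDHL_1 DMSO libraries, against 29.4, 29.9 and 30.0 TPM in sgAAVS DMSO libraries (-0.39, adjusted p = 0.022). In each the first library was lowest and the third nearly level with control. DTYMK had 13.5, 16.1 and 22.0 TPM in sgOGDHL_1 DMSO libraries, against 22.3, 22.0 and 22.3 TPM in sgAAVS DMSO libraries (-0.38, adjusted p = 0.029). DCTPP1 had 54.7, 60.9 and 85.1 TPM in sgOGDHL_1 DMSO libraries, against 85.0, 86.6 and 85.1 TPM in sgAAVS DMSO libraries (-0.38, adjusted p = 0.03). GUK1 had 60.2, 73.6 and 87.7 TPM in sgOGDHL_1 DMSO libraries, against 89.9, 93.9 and 95 TPM in sgAAVS DMSO libraries (-0.34, adjusted p = 0.023). The same order of libraries held in these 3, with the third lying within or next to the control range. CMPK1, the UMP-CMP kinase, was the largest rise, with 28.2, 26.2 and 21.5 TPM in sgOGDHL_1 DMSO libraries, against 20.7, 21.5 and 18.8 TPM in sgAAVS DMSO libraries (0.29, adjusted p = 0.033). ADSS2 had 12.7, 12.1 and 10.2 TPM in sgOGDHL_1 DMSO libraries, against 9.80, 10.0 and 9.70 TPM in sgAAVS DMSO libraries (0.22, adjusted p = 0.024). PAICS had 209, 202 and 175 TPM in sgOGDHL_1 DMSO libraries, against 168, 172 and 171 TPM in sgAAVS DMSO libraries (0.19, adjusted p = 0.03). Here the first library was highest and the third lay next to control. DCK, the deoxycytidine kinase, had 10.9, 10.3 and 9.22 TPM in sgOGDHL_1 DMSO libraries, against 8.72, 9.15 and 8.18 TPM in sgAAVS DMSO libraries (0.20, adjusted p just under 0.05). GMPS, which makes GMP from XMP, had 26.1, 25.2 and 24.8 TPM in sgOGDHL_1 DMSO libraries, against 22.8, 23.9 and 22.9 TPM in sgAAVS DMSO libraries (0.13, adjusted p = 0.041). The remaining lower calls were CAD (-0.32, adjusted p = 0.049), NME2 (-0.30, adjusted p = 0.026), UCK1 (-0.28, adjusted p = 0.019), DCTD (-0.26, adjusted p = 0.036) and NME1 (-0.13, adjusted p = 0.045). The higher calls of PAICS, CMPK1, DCK, ADSS2 and GMPS turned negative with the mitochondrial rows kept.

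Neither reductase subunit was called in that comparison (RRM1 0.04, 95% interval -0.05 to 0.13; RRM2 0.07, -0.02 to 0.16), but with its pseudogene rows added RRM2 was called lower (-0.32, adjusted p = 0.036). TYMS was slightly lower (-0.15, adjusted p = 0.037). Of the 12 S phase genes 9 were lower and none higher (median -0.14), and their part was not tested. The count of 17 calls, made after adjustment over all genes tested, moved when single libraries were left out. In limma it was 0 without sgAAVS DMSO replicate 1 or 3 or sgOGDHL_1 DMSO replicate 1 or 2 (22, 19, 14 and 19 members had an unadjusted p under 0.05). It was 9 without sgAAVS DMSO replicate 2, and 28 without sgOGDHL_1 DMSO replicate 3, and with that replicate as the only library of its group it was 0 (4 at an unadjusted p under 0.05). On TPM as deposited 34 were called, all lower.

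In the libraries labelled sgOGDHL_2 DMSO, most members were lower than in sgAAVS DMSO. Calls were made for 37 of the 41 members (90.2%), 6 higher and 31 lower, where 74.9% of all genes were called, 50.9% higher and 24.0% lower (8185 and 3853 genes, or 5411 and 6596 with median-of-ratios scaling, which called 2 members higher and 36 lower). Lower calls took 75.6% of the members. The median change was -0.69 over the members and 0.23 over all genes. Since median-of-ratios scaling moved the median of all genes to -0.07, the members were also set against that median: 37 of 41 lay below it and 4 above it with either scaling. By role, of 5 pyrimidine de novo genes 4 fell, of 11 purine de novo genes 10 fell, and the 2 PRPP, 2 purine salvage and 2 folate genes all fell. Of 7 deoxynucleotide genes 2 rose and 5 fell, of 6 genes of pyrimidine and deoxynucleoside salvage 2 rose and 3 fell, and of 6 nucleotide kinases 1 rose and 3 fell.

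TK1 had 15.7, 17.2 and 16.1 TPM in the libraries labelled sgOGDHL_2 DMSO, against 68.5, 65.5 and 70.1 TPM in sgAAVS DMSO libraries (-2.0, adjusted p = 1.7e-08). PFAS had 8.04, 9.56 and 8.47 TPM in the libraries labelled sgOGDHL_2 DMSO, against 28.6, 29.9 and 28.9 TPM in sgAAVS DMSO libraries (-1.64, adjusted p = 7.2e-09). PAICS had 59.1, 58.6 and 64.0 TPM in the libraries labelled sgOGDHL_2 DMSO, against 168, 172 and 171 TPM in sgAAVS DMSO libraries (-1.48, adjusted p = 7.7e-12). The 3 libraries were close to each other and far below the control libraries in each. MTHFD1, which supplies the formyl groups of the purine ring, had 6.47, 6.89 and 6.87 TPM in the libraries labelled sgOGDHL_2 DMSO, against 19.6, 20.6 and 19.9 TPM in sgAAVS DMSO libraries (-1.44, adjusted p = 3.8e-14). NME2 had 190.0, 186 and 177 TPM in the libraries labelled sgOGDHL_2 DMSO, against 405, 408 and 418 TPM in sgAAVS DMSO libraries (-1.15, adjusted p = 1.3e-08). CAD had 13.1, 15.9 and 14 TPM in the libraries labelled sgOGDHL_2 DMSO, against 29.6, 32.2 and 30.6 TPM in sgAAVS DMSO libraries (-1.06, adjusted p = 1.1e-06). No library of these 3 genes reached the other group's range. PPAT had 7.91, 8.70 and 8.76 TPM in the libraries labelled sgOGDHL_2 DMSO, against 17.4, 18.5 and 17.5 TPM in sgAAVS DMSO libraries (-0.99, adjusted p = 3e-09). HPRT1 had 2.94, 2.98 and 3.24 TPM in the libraries labelled sgOGDHL_2 DMSO, against 6.56, 6.90 and 6.36 TPM in sgAAVS DMSO libraries (-0.91, adjusted p = 2e-10). RRM2 had 6.12, 6.61 and 6.56 TPM in the libraries labelled sgOGDHL_2 DMSO, against 11.5, 11.8 and 11.7 TPM in sgAAVS DMSO libraries (-0.77, adjusted p = 4e-10). The salvage genes TK1 and HPRT1 and the reductase gene RRM2 were thus low in the same libraries as these de novo genes. RRM1 fell less, with 28.5, 30.6 and 31.1 TPM in the libraries labelled sgOGDHL_2 DMSO, against 36.2, 37.9 and 36.9 TPM in sgAAVS DMSO libraries (-0.29, adjusted p = 1.5e-05). IMPDH2 (-0.60, adjusted p = 2.5e-07), APRT (-0.85, adjusted p = 0.00083) and GART (-0.48, adjusted p = 8.4e-09) were lower as well.

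The exceptions were few. TYMS was higher, with 57.2, 57.6 and 57.6 TPM in the libraries labelled sgOGDHL_2 DMSO, against 36.4, 36.6 and 37.7 TPM in sgAAVS DMSO libraries (0.63, adjusted p = 2e-08). TYMSOS, an antisense transcript at the TYMS locus, was higher too, with 4.50, 4.64 and 4.72 TPM in the libraries labelled sgOGDHL_2 DMSO, against 1.63, 1.52 and 1.64 TPM in sgAAVS DMSO libraries (1.11, adjusted p = 1.1e-10). The kit kept strand, but whether counting used it is not given in the sources used here, so reads of TYMS and TYMSOS may not be fully apart. ADSS1 had 5.23, 5.61 and 6.27 TPM in the libraries labelled sgOGDHL_2 DMSO, against 2.81, 2.77 and 2.87 TPM in sgAAVS DMSO libraries (0.81, adjusted p = 1.7e-07). UCK1 had 44.8, 47.7 and 45.8 TPM in the libraries labelled sgOGDHL_2 DMSO, against 35.1, 36.0 and 35.3 TPM in sgAAVS DMSO libraries (0.37, adjusted p = 0.00014). Relative to the median of all genes, TYMS lay at 0.40, ADSS1 at 0.59 and UCK1 at 0.14, and NME4 at 0.04. NME4 had 1.89, 2.33 and 2.01 TPM in the libraries labelled sgOGDHL_2 DMSO, against 1.44, 1.64 and 1.57 TPM in sgAAVS DMSO libraries (0.27, adjusted p = 0.0056). TK2 had 7.58, 8.26 and 7.93 TPM in the libraries labelled sgOGDHL_2 DMSO, against 6.99, 7.21 and 6.92 TPM in sgAAVS DMSO libraries (0.15, adjusted p = 0.034). SAMHD1 had 9.89, 10.5 and 10.6 TPM in the libraries labelled sgOGDHL_2 DMSO, against 9.14, 9.77 and 9.49 TPM in sgAAVS DMSO libraries (0.12, adjusted p = 0.03). TK2 and SAMHD1 were thus called higher but lower with median-of-ratios scaling (-0.16 and -0.20), and UCK1 and NME4 were not called with it (0.03 and 0.04). UMPS, UCKL1, GUK1 and CMPK1 were not called.

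Beside these falls, 11 of the 12 S phase genes were lower (median -1.42), led by MCM6 (-2.10, adjusted p = 7.4e-16), and PCNA was higher (0.72, adjusted p = 6.1e-11). RRM2B, the p53-inducible small subunit of ribonucleotide reductase, had 123, 136 and 138 TPM in the libraries labelled sgOGDHL_2 DMSO, against 16.8, 18 and 15.1 TPM in sgAAVS DMSO libraries (2.92, adjusted p = 2.8e-14). In the other 15 libraries RRM2 had 8.28 to 14.8 TPM by its own row and RRM2B 15.1 to 24.6 TPM, so the 2 small subunits lay much closer there. With its pseudogene rows added RRM2 had 21.4 to 36.9 TPM in those 15 libraries, above RRM2B in all but the sgOGDHL_2 Enza libraries. Which of the 2 was higher there thus depends on those rows. PNP, the purine nucleoside phosphorylase of salvage and breakdown, had 443, 453 and 417 TPM in the libraries labelled sgOGDHL_2 DMSO, against 57.8, 60.0 and 60.3 TPM in sgAAVS DMSO libraries (2.86, adjusted p = 2.7e-16). Both rises exceeded any change of a member in that comparison. The summed markers of other cells, mostly CD68, were also higher in these libraries, as given above, and the part of any of these in the result was not tested.

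Most members were higher in sgOGDHL_2 Enza than in the libraries labelled sgOGDHL_2 DMSO, which the preceding comparison shares. Of the 41 members 34 were called (82.9%), 27 higher and 7 lower, where 72.6% of all genes were called, 23.0% higher and 49.7% lower (3688 and 7981 genes, or 6228 and 5233 with median-of-ratios scaling, which called 36 members higher and 1 lower). The median change was 0.37 over the members and -0.20 over all genes, and 37 of 41 members lay above that median. PAICS had 154, 153 and 158 TPM in sgOGDHL_2 Enza libraries, against 59.1, 58.6 and 64.0 TPM in the libraries labelled sgOGDHL_2 DMSO (1.34, adjusted p = 2.5e-11). MTHFD1 had 17.7, 17.7 and 18.2 TPM in sgOGDHL_2 Enza libraries, against 6.47, 6.89 and 6.87 TPM in the libraries labelled sgOGDHL_2 DMSO (1.29, adjusted p = 1.4e-13). CAD had 33.8, 34.3 and 34.7 TPM in sgOGDHL_2 Enza libraries, against 13.1, 15.9 and 14 TPM in the libraries labelled sgOGDHL_2 DMSO (1.21, adjusted p = 2.8e-07). In each the Enza libraries lay far above the others. TK1 had 34.8, 36.2 and 36.2 TPM in sgOGDHL_2 Enza libraries, against 15.7, 17.2 and 16.1 TPM in the libraries labelled sgOGDHL_2 DMSO (1.09, adjusted p = 1.6e-05). PFAS had 18.8, 19.4 and 19.1 TPM in sgOGDHL_2 Enza libraries, against 8.04, 9.56 and 8.47 TPM in the libraries labelled sgOGDHL_2 DMSO (1.05, adjusted p = 1.2e-06). PPAT had 17.2, 16.6 and 17.7 TPM in sgOGDHL_2 Enza libraries, against 7.91, 8.70 and 8.76 TPM in the libraries labelled sgOGDHL_2 DMSO (0.94, adjusted p = 6.3e-09). These 3 did not overlap either, and HPRT1 (0.94, adjusted p = 1.5e-10) rose as much as PPAT. TYMS went the other way, with 25.5, 25.9 and 27.3 TPM in sgOGDHL_2 Enza libraries, against 57.2, 57.6 and 57.6 TPM in the libraries labelled sgOGDHL_2 DMSO (-1.10, adjusted p = 2.9e-11). GUK1 had 72.5, 75.6 and 75.9 TPM in sgOGDHL_2 Enza libraries, against 97.6, 101 and 98.2 TPM in the libraries labelled sgOGDHL_2 DMSO (-0.40, adjusted p = 0.0011). TYMS and GUK1 were lower in every Enza library. UCK2 had 8.30, 8.54 and 8.74 TPM in sgOGDHL_2 Enza libraries, against 9.56, 10.5 and 10.2 TPM in the libraries labelled sgOGDHL_2 DMSO (-0.22, adjusted p = 0.0022). ADSS1 had 4.79, 4.68 and 4.81 TPM in sgOGDHL_2 Enza libraries, against 5.23, 5.61 and 6.27 TPM in the libraries labelled sgOGDHL_2 DMSO (-0.22, adjusted p = 0.02). Smaller falls were called for NME4 (-0.19, adjusted p = 0.039), NME1 (-0.16, adjusted p = 0.0063) and PRPS1 (-0.09, adjusted p = 0.022). UCK2, ADSS1, NME4, NME1 and PRPS1 were positive with median-of-ratios scaling (0.05, 0.03, 0.01, 0.14 and 0.20). RRM1 was not called (0.03, 95% interval -0.06 to 0.12), nor was UMPS (-0.01). Of the 12 S phase genes 11 were higher and 1 lower (median 0.90), and their part was not tested. Keeping the mitochondrial rows left 18 members called, 15 higher and 3 lower.

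The interaction tests whether the drug's change differed with a guide, as the change in the guide's cells less the change in sgAAVS cells. For sgOGDHL_1, 19 of the 41 members passed (46.3%), 16 positive and 3 negative, where 26.8% of all genes passed, 11.6% positive and 15.2% negative (1868 and 2438 genes, or 2867 and 2268 with median-of-ratios scaling). DTYMK (0.62, adjusted p = 0.011), IMPDH1 (0.61, adjusted p = 0.0063, but 0.21 and not called with its pseudogene rows added), PFAS (0.60, adjusted p = 0.016), TYMS (0.56, adjusted p = 4.2e-05), CTPS1 (0.49, adjusted p = 8.9e-05), RRM2 (0.48, adjusted p = 5.2e-05) and RRM1 (0.23, adjusted p = 0.011) were among the positive terms, and TK2 (-0.29, adjusted p = 0.019), NME4 (-0.32, adjusted p = 0.044) and SAMHD1 (-0.21, adjusted p = 0.023) were the negative ones. The terms of TK1 (0.69, adjusted p = 0.032) and NME2 (0.36, adjusted p = 0.042) did not pass with sgOGDHL_1 DMSO replicate 3 as the only library of its group (0.19 and 0.07). Replicate 3 of sgOGDHL_1 DMSO also lay near the sgAAVS DMSO mean for DTYMK (22.0 against 22.2 TPM), PFAS (29.9 against 29.2 TPM) and IMPDH1 (28.0 against 29.8 TPM). The terms of these genes thus draw on the low values of sgOGDHL_1 DMSO replicates 1 and 2. The same order of libraries held, among others, for TYMS (replicate 3 at 36.3 against 36.9 TPM), CTPS1 (23.3 against 23.5 TPM), NME1 (194 against 197 TPM) and UCK2 (13.04 against 12.96 TPM). Their terms draw on those low values in part. On TPM as deposited 4 terms passed, all positive. For sgOGDHL_2 the term rests on the libraries labelled sgOGDHL_2 DMSO, and 31 members passed (75.6%), 27 positive and 4 negative, where 63.2% of all genes passed, 19.5% positive and 43.7% negative (3137 and 7019 genes, or 5626 and 4490 with median-of-ratios scaling). TK1 (1.75, adjusted p = 6e-06), PFAS (1.54, adjusted p = 1.4e-06), PAICS (1.42, adjusted p = 1.6e-09) and MTHFD1 (1.36, adjusted p = 1.1e-11) were the largest positive terms, and TYMS (-0.94, adjusted p = 2.2e-08), ADSS1 (-0.74, adjusted p = 2.9e-05) and UCK1 (-0.41, adjusted p = 0.0015) the largest negative ones. The negative term of UMPS (-0.17, adjusted p = 0.043) was positive with median-of-ratios scaling (0.14). The 2 interactions share the sgAAVS libraries. On TPM as deposited 16 passed for sgOGDHL_2, 14 positive and 2 negative.

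De novo and salvage genes were set side by side over the same comparisons. The de novo list holds 16 genes and the salvage list 8. With Enza in control cells 3 de novo genes were called higher and 9 lower (median -0.19), and 2 salvage genes were higher and 2 lower (median 0.04), a difference of medians of -0.23. Of all genes 23.1% were called higher there and 24.8% lower, near the shares of the salvage list. Taken per library, the de novo median less the salvage median was -0.09, -0.08 and -0.09 in sgAAVS Enza libraries, against 0.12, 0.09 and 0.13 in sgAAVS DMSO libraries, after each gene was centred on its mean over libraries. The 2 groups were separate, and the gap between them exceeded the range within either. In sgOGDHL_2 Enza libraries it was -0.03, -0.05 and -0.04, against -0.26, -0.28 and -0.22 in the libraries labelled sgOGDHL_2 DMSO. In sgOGDHL_1 Enza libraries it was 0.04, 0.02 and 0.17, against 0.45, 0.24 and 0.05 in sgOGDHL_1 DMSO libraries, which spread more widely than any other group and where the third library lay lowest. By the medians over genes, de novo less salvage was -0.12 for Enza in sgOGDHL_1 cells (-0.02 and 0.10). In sgOGDHL_2 cells it was 0.07 (0.53 and 0.46), so by that measure the lists hardly parted. The values per library given above nevertheless did not overlap between sgOGDHL_2 Enza and the libraries labelled sgOGDHL_2 DMSO, so the 2 measures differ there. No test was run on these lists.

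In the libraries labelled sgOGDHL_2 DMSO against sgAAVS DMSO both lists were lower, with medians of -0.78 (1 higher, 14 lower) for de novo and -0.51 (2 higher, 5 lower) for salvage, where the median of all genes was 0.23. Of all genes 50.9% were called higher there and 24.0% lower. Within Enza, with sgOGDHL_1 against sgAAVS the medians were 0.13 (5 higher, 0 lower) and 0.08 (2 higher, 1 lower), with sgOGDHL_2 against sgAAVS -0.02 (0 higher, 1 lower) and -0.06 (none called), and with sgOGDHL_2 against sgOGDHL_1 -0.15 (1 higher, 10 lower) and -0.11 (1 higher, 3 lower). The differences of these medians were small, at 0.05, 0.04 and -0.05, but by the values per library given above the 3 Enza groups did not overlap, with sgOGDHL_1 highest and sgAAVS lowest. In the same order of comparisons, the shares of all genes called higher and lower were 16.3% and 14.3%, 8.97% and 5.02%, and 22.2% and 18.8%.

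**Figure D4:**
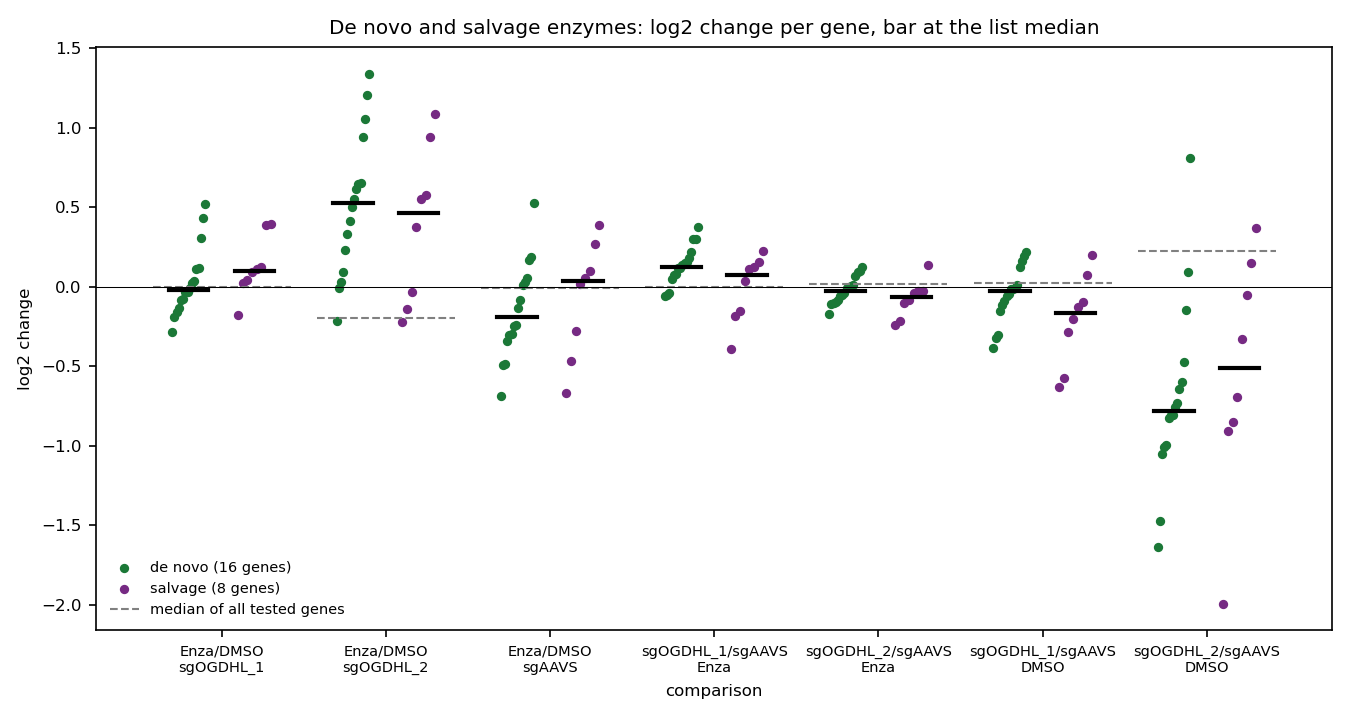
Change in log2(TPM + 1) of the 16 de novo genes (green) and 8 salvage genes (purple) in 7 comparisons; each point is a gene, the bar is the median of the list and the dashed line the median of all genes tested. The lists part most in the libraries labelled sgOGDHL_2 DMSO, at -0.78 and -0.51, and for Enza in sgAAVS, at -0.19 and 0.04.

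The neighbouring genes of the pathway, chosen as lists outside the 41, moved as follows with Enza in control cells. The salvage and turnover list also held the reductase subunit RRM2B. Of its 17 tested genes 2 rose, RRM2B among them, and 8 fell (median -0.17), where 23.1% of all genes were called higher and 24.8% lower. SLC29A2, a nucleoside transporter, had 29.3, 27.3 and 27.2 TPM in sgAAVS Enza libraries, against 47.2, 49.8 and 48.1 TPM in sgAAVS DMSO libraries (-0.77, adjusted p = 0.0011). TYMP, the thymidine phosphorylase that breaks thymidine down, had 15.7, 14.6 and 14.7 TPM in sgAAVS Enza libraries, against 6.33, 7.45 and 7.58 TPM in sgAAVS DMSO libraries (0.98, adjusted p = 2.6e-06). RRM2B had 22.9, 20.2 and 23.6 TPM in sgAAVS Enza libraries, against 16.8, 18 and 15.1 TPM in sgAAVS DMSO libraries (0.40, adjusted p = 0.00031). The 2 rises and the fall of the transporter all separated the groups. The one-carbon list also held the antisense transcript TYMSOS and the PRPP synthetase-associated genes PRPSAP1 and PRPSAP2. Of its 10 tested genes 5 fell and none rose. MTHFD2, the mitochondrial folate enzyme, had 31.0, 30.0 and 31.9 TPM in sgAAVS Enza libraries, against 49, 51.4 and 47.7 TPM in sgAAVS DMSO libraries (-0.66, adjusted p = 3e-08). Of 9 other kinases 2 rose and 3 fell.

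With sgOGDHL_1 in Enza, 4 genes of the one-carbon list rose and none fell, and 4 genes of the salvage and turnover list rose and 2 fell. Among all genes 16.3% were called higher in that comparison and 14.3% lower. MTHFD2 had 46.6, 42.9 and 47.2 TPM in sgOGDHL_1 Enza libraries, against 31.0, 30.0 and 31.9 TPM in sgAAVS Enza libraries (0.54, adjusted p = 8.3e-07). TYMP had 8.27, 7.80 and 7.52 TPM in sgOGDHL_1 Enza libraries, against 15.7, 14.6 and 14.7 TPM in sgAAVS Enza libraries (-0.85, adjusted p = 2.9e-05). MTHFD2 was higher in every sgOGDHL_1 Enza library than in any sgAAVS Enza library, and TYMP was lower, as was RRM2B (-0.21, adjusted p = 0.033). In sgOGDHL_2 Enza, PSAT1 of serine synthesis had 25.9, 24.7 and 26.2 TPM, against 36.5, 34.5 and 36.2 TPM in sgAAVS Enza libraries (-0.47, adjusted p = 3.8e-06), MTHFD2 was slightly lower (-0.17, adjusted p = 0.031), and no gene of salvage and turnover was called. Only 14.0% of all genes were called in that comparison. Between the guides in Enza, PSAT1 (-1.03, adjusted p = 1.7e-10) and MTHFD2 (-0.71, adjusted p = 3.5e-08) were lower with sgOGDHL_2, and TYMP was higher (1.05, adjusted p = 2.5e-06). In the libraries labelled sgOGDHL_2 DMSO 7 of 10 genes of the one-carbon list were lower than in sgAAVS DMSO and 2 higher (median -0.65). The antisense transcript TYMSOS was among the higher ones (1.11). Among all genes 24.0% were called lower there and 50.9% higher.

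Rows named as pseudogenes of 12 members, 35 rows in all, carried TPM of their own. How reads shared between a gene and its near-identical copy were assigned is not given in the sources used here, so the values of these members are uncertain. PAICSP4 had a median of 196 TPM over libraries, NME2P1 334 TPM, GMPSP1 143 TPM, PPATP1 26.7 TPM, MTHFD1P1 23.3 TPM and RRM2P3 12.3 TPM. The gene's own row held 36.3% to 57.3% of the sum for RRM2, 42.4% to 54.2% for PAICS, 36.9% to 50.3% for PPAT, 33.9% to 52.7% for IMPDH1 and 12.6% to 14.9% for GMPS, but 98.5% to 100% for TYMS. When the rows were added to the gene, a choice made after seeing the data, 17 of 120 calls over the 10 comparisons changed. RRM2 kept its call in Enza against DMSO in control cells (-0.32, adjusted p = 0.019) and for sgOGDHL_1 in Enza (0.55, adjusted p = 0.00089). For sgOGDHL_1 in DMSO it was called lower with the added rows (-0.32, adjusted p = 0.036), where its own row was not called (0.07). Its rise with Enza in sgOGDHL_1 cells was 0.55 in place of 0.19, and its sgOGDHL_1 interaction 0.87 in place of 0.48. IMPDH1 fell by less with Enza in control cells (-0.40, adjusted p = 0.0010) and lost its call between the guides in Enza (-0.03, adjusted p = 0.79). Its interaction terms were not called for sgOGDHL_1 (0.21, adjusted p = 0.19) or sgOGDHL_2 (0.24, adjusted p = 0.084). The sgOGDHL_1 interactions of NME2 (0.47, adjusted p = 0.063) and MTHFD1 (0.07, adjusted p = 0.38) were not called either, nor was NME2 between the guides in Enza (-0.26, adjusted p = 0.11). PAICS lost its call for Enza in sgOGDHL_1 cells and for sgOGDHL_1 in DMSO and gained one for sgOGDHL_1 in Enza (0.12, adjusted p = 0.016). MTHFD1 lost its call for Enza in sgOGDHL_1 cells (0.06, adjusted p = 0.20), where PPAT gained one (0.16, adjusted p = 0.0095), and MTHFD1 gained one for sgOGDHL_1 in DMSO (0.11, adjusted p = 0.040). The other lost calls were of PRPS1, GMPS, SHMT1 and HPRT1, in 1 comparison each. NME2, next to NME1, also shares a readthrough row with it, at 4.31 to 19.5 TPM.

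**Figure D5:**
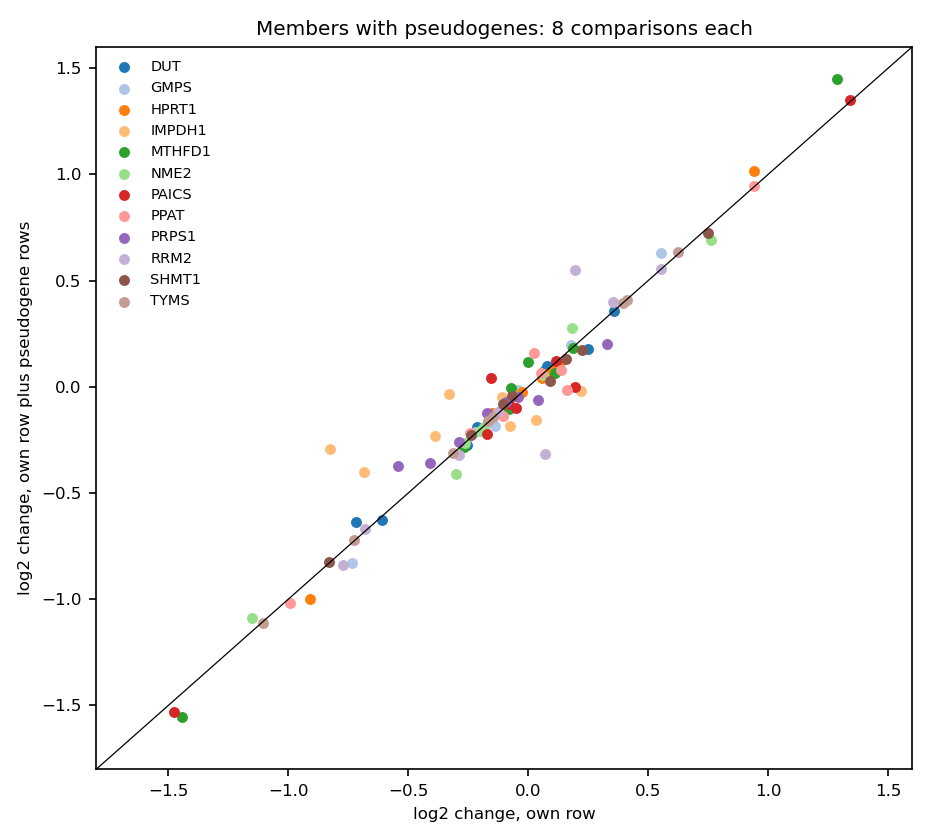
Change in log2(TPM + 1) of 12 members in 8 comparisons from the gene's own row (x) and from that row with its pseudogene rows added (y); the line marks equal values. Most points lie near the line, and IMPDH1 between the guides in Enza lies at -0.33 by its own row and -0.03 with the added rows.

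Over the 18 libraries the 4 genes RRM1, RRM2, TYMS and TK1 did not form a single pattern. RRM1 and RRM2 had a Pearson correlation of log2(TPM + 1) of 0.90, RRM2 and TK1 0.79 and RRM1 and TK1 0.60, while TYMS correlated with RRM1 at 0.02, with RRM2 at -0.22 and with TK1 at -0.49. These describe 18 libraries in 6 groups that share composition and the outlying group, in which TYMS was high and the other 3 low. Among the genes most like the mean z-score of the 4 over the 18 libraries were FEN1 (0.97), CUTC (0.96), PSMA1 (0.96), TUBB4B (0.96), TNPO3 (0.96), NAA10 (0.94), WARS1 (0.94), MYBL2 (0.94) and BOLA2-SMG1P6 (0.94).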

How the data were processed

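RNA of the 18 libraries was prepared with a stranded poly(A) RNA kit and sequenced in pairs on a NovaSeq X Plus, per the labels' protocols. STAR and GRCh38 are named in the submitters' processing notes, with no version; which tool counted reads, on which annotation and whether by strand is not stated in the labels. The authors deposited TPM per gene, without counts, so depth is unknown and no counting interval is given.

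From the deposited TPM, 37 mitochondrially encoded rows were removed and libraries were rescaled to 1000000. Then rows of a symbol were summed, leaving out 3 symbols with 5 or more rows and 10345 unnamed rows, which held 4.24% to 9.68% of the deposited TPM. No per-sample column was left unmapped. Genes with at least 1 TPM in at least 3 libraries were tested with limma 3.58.1 (trend, R 4.3.3) on log2(TPM + 1), with 6 group means over all 18 libraries, a threshold of 0.05 and Benjamini-Hochberg adjustment over all 16067. The step was tested on simulated data. Figures and summaries used Python 3.11.15, numpy 2.4.6, pandas 2.3.3 and matplotlib 3.10.9.

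The members, the lists and the rule for naming genes were chosen with earlier results of these data known. Per comparison the rule gives library values for up to 6 called members in each direction by size of change, for 12 core enzymes where described, and for 10 genes most alike. RRM2B, PNP, TYMP, PCNA and other non-members were picked from the lists after their values were seen. Alternatives were the mitochondrial rows kept, pseudocounts of 0.1 and 5, a filter of 5 TPM or none, median-of-ratios scaling, own libraries only, a replicate block, library weights, leaving out libraries, and pseudogene rows added to members. Some genes of the marker, one-carbon and likeness lists are not reported here.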

Additional observations from a re-analysis of the deposited data

Results flagged for a closer look

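Each member below had a drug response in the guide's cells that differed from that in sgAAVS cells by an interaction test (limma, adjusted over all genes tested); values are the difference of the 2 responses on the log2(TPM + 1) scale.

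For sgOGDHL_1 the difference was positive for TK1 (0.69), DTYMK (0.62), IMPDH1 (0.61), PFAS (0.60), TYMS (0.56), CTPS1 (0.49), RRM2 (0.48), NME1 (0.47), PRPS1 (0.37), NME2 (0.36), SHMT1 (0.33), GART (0.31), UCK2 (0.29), DUT (0.29), RRM1 (0.23) and MTHFD1 (0.19). With pseudogene rows added, IMPDH1 (0.21, adjusted p = 0.19), NME2 (adjusted p = 0.063) and MTHFD1 (0.07, adjusted p = 0.38) did not pass. The positive differences of TK1, DTYMK, IMPDH1, PFAS and NME2 draw on low values in sgOGDHL_1 DMSO replicates 1 and 2, whose mitochondrial shares were 73.8% and 69.9%. TYMS, CTPS1, NME1 and UCK2, among others, were also lower in those replicates than in replicate 3, which lay near the sgAAVS DMSO mean. The difference was negative for NME4 (-0.32), TK2 (-0.29) and SAMHD1 (-0.21).

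For sgOGDHL_2, where the response is taken against the libraries labelled sgOGDHL_2 DMSO, it was positive for TK1 (1.75), PFAS (1.54), PAICS (1.42), MTHFD1 (1.36), CAD (1.18), SHMT1 (0.99), DHODH (0.95), NME2 (0.95), ATIC (0.90), PPAT (0.89), HPRT1 (0.88), APRT (0.83), CTPS2 (0.80), DCTPP1 (0.75), DTYMK (0.74), IMPDH1 (0.72), GMPS (0.69), ADSL (0.66), RRM2 (0.65), IMPDH2 (0.60), CTPS1 (0.59), GART (0.57), DCK (0.48), DUT (0.46), PRPS1 (0.45), UCK2 (0.25) and NME1 (0.25). It was negative for TYMS (-0.94), ADSS1 (-0.74), UCK1 (-0.41) and UMPS (-0.17). IMPDH1 did not pass with its pseudogene rows added (0.24, adjusted p = 0.084). OGDHL in the libraries labelled sgOGDHL_2 DMSO went against their label, so these values compare the labelled libraries.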

How the results depend on the processing

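Depth is unknown, so the limits here include the 3 libraries per group, the mitochondrial share and the shared reads of pseudogenes. The libraries labelled sgOGDHL_2 DMSO also had fewer rows at 0 than any other, as given above, and the part of this in the results was not tested. With the mitochondrial rows kept, the members called were 6 for Enza in sgAAVS, 18 for Enza in sgOGDHL_2, 34 for sgOGDHL_1 in DMSO, 1 for sgOGDHL_1 in Enza, 0 in limma for sgOGDHL_2 in Enza (4 at an unadjusted p under 0.05), 7 between the guides, and 4 and 16 for the interactions of sgOGDHL_1 and sgOGDHL_2. Over all genes, higher and lower calls on TPM as deposited were 3532 and 475 for Enza in sgOGDHL_1, 1507 and 6476 in sgOGDHL_2, 41 and 7716 for sgOGDHL_1 in DMSO, 289 and 659 in Enza, and 761 and 171 and 1168 and 4681 for the interactions. Fitted on their own libraries, 8 were called for Enza in sgOGDHL_1, 0 in limma for sgOGDHL_1 in DMSO (7 at an unadjusted p under 0.05) and 12 for sgOGDHL_2 in Enza. With library weights (a fit that stopped before it converged), 34 were called for Enza in sgOGDHL_1, 34 for sgOGDHL_1 in DMSO, 30 for sgOGDHL_1 in Enza, 18 for sgOGDHL_2 in Enza and 31 for the sgOGDHL_1 interaction. Without a filter, 11 were called for sgOGDHL_1 in DMSO, and with median-of-ratios scaling 11 for sgOGDHL_2 in Enza. With sgOGDHL_1 DMSO replicate 3 left alone in its group, its spread taken from the other groups, 0 were called for sgOGDHL_1 in DMSO and 11 for sgOGDHL_2 in Enza, and de novo less salvage was 0.092 for Enza in sgOGDHL_1 and 0.0035 for sgOGDHL_1 in DMSO.

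Replicate numbers gave no strong pairing of the samples, as no pair of groups had all 3 correlations of deviations over 0.1. In some pairs, though, every library of the first group correlated best with its own number in the second. These were sgAAVS Enza and sgOGDHL_1 Enza (0.110, 0.051 and 0.091), sgAAVS DMSO and sgOGDHL_1 DMSO (0.056, 0.052 and 0.092), and the libraries labelled sgOGDHL_2 DMSO and sgAAVS Enza (0.029, 0.025 and 0.029). The reverse direction was not checked. This is a hint from the data and not the design, and a weak pairing remains possible. With the replicate number as a block, 11 members were called for sgOGDHL_1 in DMSO and the other counts moved by less than 1.5 times.

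Leaving out 1 library gave 24 to 29 calls for Enza in sgAAVS, 14 to 29 in sgOGDHL_1 and 30 to 36 in sgOGDHL_2, 0 to 28 for sgOGDHL_1 and 34 to 39 for the libraries labelled sgOGDHL_2 in DMSO, 14 to 27 for sgOGDHL_1 and 3 to 11 for sgOGDHL_2 in Enza, 22 to 31 between the guides, and 15 to 28 and 30 to 34 for the interactions.

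Called values of single members changed sign in these cases, and the cause was not tested. With the mitochondrial rows kept, Enza in sgOGDHL_1 gave DHODH 0.17, UCK2 0.11, CTPS2 0.048, PAICS 0.19, ATIC 0.052, GUK1 0.067 and PRPS1 0.16, sgOGDHL_1 in DMSO gave CMPK1 -0.17, DCK -0.21, PAICS -0.30, ADSS2 -0.20 and GMPS -0.33, and the sgOGDHL_1 interaction gave TK2 0.0033 and SAMHD1 0.11. With median-of-ratios scaling, Enza in sgOGDHL_2 gave UCK2 0.050, NME1 0.14, NME4 0.0064, ADSS1 0.034 and PRPS1 0.20, the libraries labelled sgOGDHL_2 DMSO gave TK2 -0.16 and SAMHD1 -0.20, and the sgOGDHL_2 interaction gave UMPS 0.14. With sgOGDHL_1 DMSO replicate 3 left alone, Enza in sgOGDHL_1 gave DCTPP1 -0.067 and sgOGDHL_1 in DMSO gave CAD 0.033 and DCTD 0.0058. With pseudogene rows added, PAICS was 0.044 for Enza in sgOGDHL_1 and -0.0029 for sgOGDHL_1 in DMSO; of values not called, RRM2 turned to -0.32 and MTHFD1 to 0.11 for sgOGDHL_1 in DMSO, and both were called. With pseudocounts of 0.1 and 5, a filter of 5 TPM and library weights, no called value of a member changed sign.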
